A study of Mus musculus with 18 samples.

Results

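Wild-type mouse mammary organoids grown with a Wnt surrogate and R-spondin 2 were compared with wild-type organoids grown with the same pair of factors plus epidermal growth factor (EGF). The comparison took 6 of the study's 18 RNA-seq libraries, 3 per medium, and covered the 17092 of 55536 annotated genes that passed a filter on low counts. Organoids came from mammary glands of C57BL/6 mice aged 6 to 7 weeks, were set in matrigel in DMEM/F12 supplemented with insulin, selenium and transferrin, and were treated for 5 days. WR medium held 0.1 nM of the next-generation surrogate Wnt (NGS-Wnt) and 8.3 nM Rspo2, and EGF-WR medium held these and 2.5 nM EGF. Both groups therefore carried NGS-Wnt, Rspo2 and insulin, and differed in EGF. Replicate numbers 1 to 3 are batches that both media share, and batch was a term in the model. The study's other groups were wild-type organoids in 2.5 nM EGF alone and RasGRP1-/- organoids, which lack a Ras exchange factor, in the same 3 media; they entered the model and are given beside the result where they bear on it. The labels call the organoids mammary epithelial cells and do not say how many animals were pooled. NGS-Wnt is a designed protein that stands in for a natural Wnt, and the cells' own Wnt and EGF-family ligands were not removed.

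EGF binds the receptor Egfr and drives the Ras, Raf, MEK and ERK cascade, whose usual transcriptional marks are ETS-family factors of the Etv group and feedback inhibitors of the Dusp, Spry and Spred families. In the mammary gland, EGF-family ligands drive growth of the ducts, and ERK activity also bears on the choice between luminal and basal fates. Wnt proteins bind Frizzled and Lrp receptors and stabilise beta-catenin, R-spondins raise the signal by keeping Frizzled receptors at the cell surface, and the pathway supports basal cells and mammary stem cells. Strong beta-catenin activity in mammary epithelium is also known to bring on epidermis-like, squamous differentiation.

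The 6 libraries held 27417474 to 30475054 counted reads each and 20274 to 21716 detected genes, and mitochondrial genes took 1.44% to 2.54% of reads. No pair of replicates was a duplicate. The first principal component of the 6 libraries (33.5% of the variance) separated the media and the second (26.7%) spread the batches. Rasgrp1, the gene deleted in the mutant mice, was barely read in wild-type organoids, at 0.224, 0.197 and 0.650 CPM (read counts scaled to the library size) in EGF-WR replicates 1, 2 and 3 and 0.918, 0.345 and 0.830 CPM in WR replicates 1, 2 and 3, and averaged 0.0658 and 0.0991 CPM in the mutant's EGF-WR and WR libraries. Values are given in the order of replicates 1, 2 and 3 throughout, errors after ± are SE unless SD is named, and CPM compares one gene between libraries, not genes of different lengths.

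With EGF, 1835 genes differed, 10.7% of those tested, at an adjusted p under 0.05 in edgeR's quasi-likelihood test with Benjamini-Hochberg adjustment. Of these, 841 were higher with EGF (4.92% of tested genes) and 994 were lower (5.82%). The lower side held the larger changes: 480 genes fell at least 2-fold against 200 that rose as much, and 62 against 30 passed 8-fold. The median change was a log2 difference of 0.58 among higher genes and -0.97 among lower genes, against 0.00 over all tested genes. Higher genes were also the more abundant, with a median of 64.6 CPM against 18.5 CPM for lower genes and 17.8 CPM for all tested genes. All 3 batch pairs moved the same way for 1833 of the 1835 genes, against 48.5% of all tested genes; the exceptions were Nmnat2 and Kcna1. The EGF-WR and WR values did not overlap for 1338 called genes, against 17.5% of all tested genes. The number of calls rested on the batch term: without it 404 genes passed. It fell to 1119 without EGF-WR replicate 1 and 1180 without EGF-WR replicate 3, and to 876 and 785 without the whole of batch 1 or batch 3. Fitted on the 9 wild-type libraries or on the 6 of this comparison alone, 2205 and 2651 genes passed, and several list counts moved with them. The calls rest on a spread estimated across genes. Exact permutation of 3 and 3 libraries with batch ignored allows no two-sided p under 0.1 for any one gene. Permutation within the batch pairs allows fewer arrangements still.

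**Figure D1:**
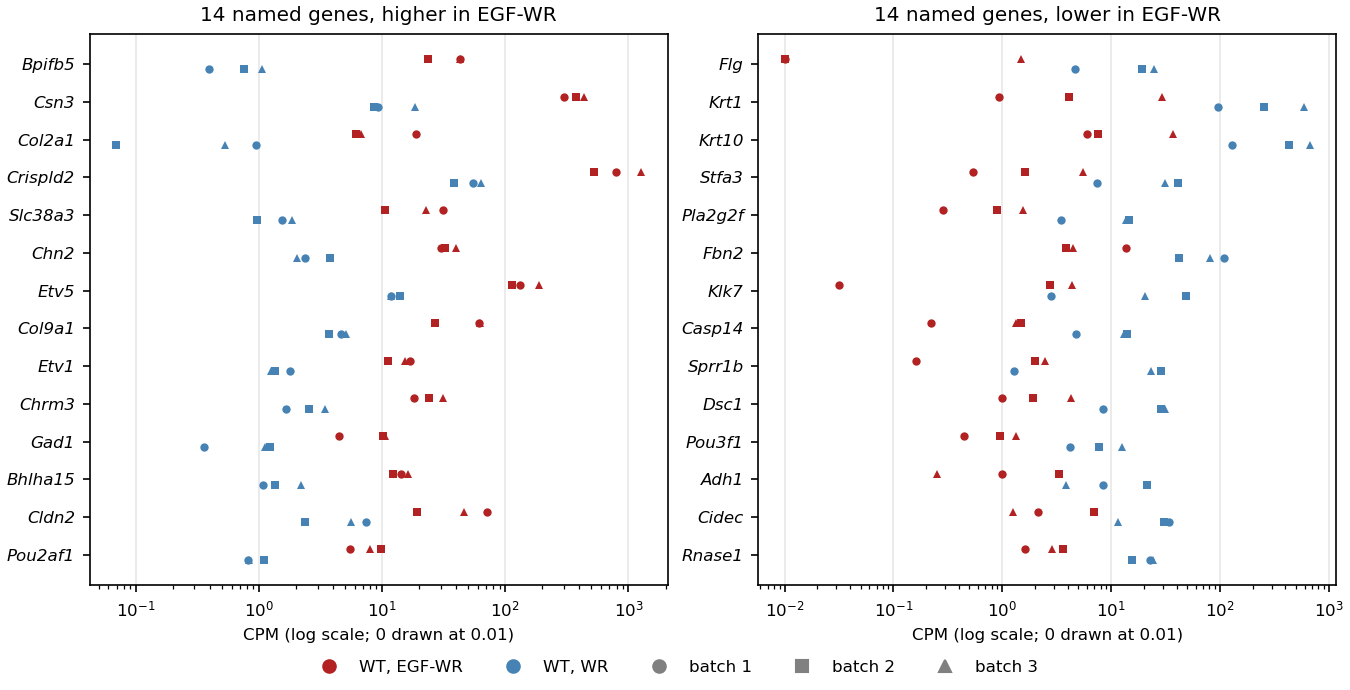
CPM of 28 named genes in each wild-type library on a log axis, red for EGF-WR and blue for WR, with the marker shape giving the batch and a value of 0 drawn at 0.01. The 14 genes of the left panel sit higher in EGF-WR, where Csn3 and Crispld2 are among the most abundant, and the 14 of the right panel sit higher in WR, with overlap for Klk7 and Sprr1b.

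The proximal promoters of a casein and a keratin, genes among the most changed in each direction, are shown. Each run is the 250 bases before the RefSeq transcript start (build GRCm38.p6), 5′ to 3′ on the gene's strand, and capitals mark matches to the searched motifs.
Csn1s1 (chr5:87665958-87666207, + strand): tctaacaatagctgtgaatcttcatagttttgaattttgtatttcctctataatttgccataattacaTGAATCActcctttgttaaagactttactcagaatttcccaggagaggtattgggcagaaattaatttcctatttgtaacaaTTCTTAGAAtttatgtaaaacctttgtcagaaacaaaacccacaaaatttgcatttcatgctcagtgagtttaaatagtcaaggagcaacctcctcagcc
Krt10 (chr11:99389365-99389614, − strand): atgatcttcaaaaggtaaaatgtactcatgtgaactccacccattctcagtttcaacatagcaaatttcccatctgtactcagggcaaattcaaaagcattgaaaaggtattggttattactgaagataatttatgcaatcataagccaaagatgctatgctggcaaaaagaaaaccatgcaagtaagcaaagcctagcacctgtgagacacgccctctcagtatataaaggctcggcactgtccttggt
The Csn1s1 window holds TTCTTAGAA at -100 to -92, a match to the STAT-type motif TTCNNNGAA, and TGAATCA at -182 to -176, a match to the AP-1-type motif TGANTCA. STAT-type matches lay in 7.02% of the 32851 promoters of 27025 genes in the table, in 5.73% of promoters of genes that rose, in 5.58% of those of genes that fell, and in 4 of 20 promoters of milk protein and alveolar genes. AP-1-type matches lay in 6.75%, 5.16% and 6.67% of the first 3 of these sets and in 2 of the 20 milk gene promoters. These 20 belong to 15 genes and include the Csn1s1 window shown. The Krt10 window held no match to these motifs, nor to the ETS core CCGGAAGT, the SREBP-type motif TCACNCCAC or the TCF/LEF motif ATCAAAG. Windows of Crispld2 and Etv5, genes that rose more than Csn1s1, were searched the same way and are not printed. They held no match to any of these motifs. Both strands were searched, and the 5 motifs differ in length and base composition. CCGGAAGT lay in 3.67% of promoters of genes that rose, 0.328% of those of genes that fell and 5.58% of those of tested genes that were not called, against 2.88% of all promoters. ATCAAAG lay in 1.26%, 2.41% and 2.38% of these sets and 3.21% of all promoters. Of the 20 milk gene promoters ATCAAAG lay in 2, and CCGGAAGT and TCACNCCAC in 0.

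ETS-family transcription factors of the Etv group, direct readouts of ERK signalling, rose with EGF. Etv5 was at 132, 114 and 189 CPM with EGF and 11.9, 13.98 and 11.7 CPM without it. Etv1 was at 16.9, 11.2 and 15.4 CPM with EGF and 1.80, 1.35 and 1.26 CPM without it. Etv4 was at 40.4, 70.5 and 63.9 CPM with EGF and 14.4, 23.8 and 14.2 CPM without it. All 3 EGF-WR libraries lay above all 3 WR libraries for each gene. The log2 changes were 3.49 ± 0.26 (SE; adjusted p = 5.49e-06) for Etv5, 3.29 ± 0.20 (adjusted p = 1.95e-08) for Etv1 and 1.72 ± 0.22 (adjusted p = 2.43e-04) for Etv4. The list of 20 ERK-responsive genes that holds them had 4 that rose and 1 that fell (Ccnd1), with a median change of -0.27. The fourth to rise was Phlda1, an early gene, at 1.09 ± 0.29 (adjusted p = 0.034); its call was lost in 9 of 17 alternatives, among them the omission of any EGF-WR library or of WR replicate 1 or 2. The number that fell depended on which libraries were fitted: it was 8 with the 9 wild-type libraries, 9 with the 6 alone and 3 without batch 2. Of the immediate early genes, Fos was at -0.24, Egr1 at -0.37 and Jun at -0.59 on the log2 scale after 5 days of culture, none of them called in the fit of 18 libraries. With the 6 libraries alone the adjusted p was 0.0161 for Jun, 0.0993 for Egr1 and 0.069 for Fos. Ccnd1, the cyclin D1 gene and a target of both ERK and Wnt signalling, fell by 0.47 on the log2 scale (SE 0.09, adjusted p = 0.00164), from 745, 815 and 893 CPM in WR to 476, 631 and 675 CPM in EGF-WR. The groups did not overlap for Ccnd1.

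Feedback inhibitors of Ras and ERK moved in part. Of 15 tested, 3 rose (Dusp4, Spred1 and Dusp7), 1 fell (Dusp2), and the median change was 0.34; 1 rose without EGF-WR replicate 3 or WR replicate 3. With the 9 wild-type libraries 6 rose and 2 fell, and with the 6 alone 7 rose and 3 fell. Dusp2 was not among those called lower in these 2 fits, and its call was lost in 11 of 17 alternatives, limma-voom among them. Spred1, an inhibitor of Ras activation, was at 136, 117 and 136 CPM with EGF and 73.7, 84.7 and 88.8 CPM without, a log2 change of 0.66 ± 0.10 (adjusted p = 4.63e-04). Its groups did not overlap, and its call held in every alternative run. Dusp4, a nuclear ERK phosphatase, changed by 1.06 ± 0.26 (adjusted p = 0.0209) with overlapping groups, and its adjusted p was 0.0935 without EGF-WR replicate 3, 0.101 without WR replicate 2 and 0.0901 without WR replicate 3. Dusp6, the cytoplasmic ERK phosphatase and a standard readout of the pathway, was at 210.2, 205 and 215 CPM against 59.999, 66.8 and 91.3 CPM. These groups did not overlap, yet the fit over 18 libraries gave 1.53 ± 0.49 with an adjusted p of 0.0766, which misses the threshold. Fitted on the 6 libraries alone its adjusted p was 1.06e-04, and in the authors' deposited table its log2 change was 1.52 with an adjusted p of 0.0173.

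Ligands, receptors and cascade genes mostly did not pass. Among 9 tested EGF-family ligands only Nrg2, a neuregulin that binds Erbb3 and Erbb4, was called; it rose from 0, 0.829 and 0.498 CPM to 2.49, 6.09 and 5.92 CPM, by 3.59 ± 0.50 (adjusted p = 1.55e-04). All of its EGF-WR values lay above all of its WR values. None of 9 ErbB receptors and receptor-level inhibitors was called in edgeR, DESeq2 or limma-voom, and 2 of the 9 had an unadjusted p under 0.05; with the 9 wild-type or the 6 libraries 1 was called lower, Egfr. In the fit of 18 libraries Egfr was at -0.28 (adjusted p = 0.0906) and Errfi1, an inhibitor of the receptor, at 0.73 (adjusted p = 0.367). Among 22 Ras exchange factors, Ras and cascade genes, 2 rose and 2 fell. Rasgrp3, an exchange factor of the same family as the deleted gene, fell by 1.33 on the log2 scale (SE 0.23, adjusted p = 0.00104), from 13.9, 11.6 and 12.9 CPM to 3.70, 4.47 and 7.40 CPM without overlap. Rasgrp3 is also known from endothelial cells, whose markers also fell, and their part in its change was not tested.

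Wnt target genes leaned lower with EGF. Of 22 tested targets and feedback genes, 4 fell (Nkd1, Apcdd1, Ccnd1 and Cd44), 1 rose (Bambi, a decoy receptor, with overlapping groups), and the median change was -0.16; 2 fell without EGF-WR replicate 3 or WR replicate 1, and 7 with the 6 libraries alone. Apcdd1, a membrane inhibitor of Wnt signalling, was at 16.4, 16.5 and 10.3 CPM with EGF and 30.7, 39.7 and 33.5 CPM without. Its groups did not overlap, its log2 change was -1.26 ± 0.24 (adjusted p = 0.00228), and the call held in every alternative run. Nkd1, an intracellular Wnt inhibitor, changed by -1.31 ± 0.29 (adjusted p = 0.00796); its adjusted p was 0.0502 without EGF-WR replicate 3 and 0.0502 without WR replicate 1. Axin2, the most general Wnt target, was at 8.17, 24.1 and 21.7 CPM against 20.7, 41.7 and 54.4 CPM. Each batch was lower with EGF but the groups overlapped, and the change of -1.17 ± 0.37 had an adjusted p of 0.0652; in the EGF medium, with no added Wnt, Axin2 averaged 4.66 ± 0.338 CPM (SD, n = 3). In the authors' deposited table Axin2 stood at -1.18 with an adjusted p of 0.0397. Lgr5, an R-spondin receptor and Wnt target, was at 118, 80.7 and 79.97 CPM against 184, 85.8 and 117 CPM, a change of -0.44 ± 0.14 (adjusted p = 0.0579).

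Among 19 receptors for Wnt and R-spondin, 2 rose and 3 fell (1 without EGF-WR replicate 3 or WR replicate 1, 5 in DESeq2 and with the 9 wild-type or the 6 libraries). Lrp5, a co-receptor of Wnt that surrogate Wnts are built to bind, was at 523, 523 and 605 CPM with EGF and 342, 356 and 371 CPM without, a change of 0.63 ± 0.07 (adjusted p = 2.06e-05). Its groups did not overlap and its call held in every alternative run. Ror1, a non-canonical Wnt receptor, changed by -0.80 ± 0.11 (adjusted p = 1.86e-04), and Ptk7, a pseudokinase co-receptor, by 0.39 ± 0.06 (adjusted p = 4.71e-04). The organoids' own Wnt and R-spondin genes leaned lower: all 12 tested members had a negative change, the median was -0.88, and 5 were called. Rspo1 was at 5.40, 3.09 and 3.50 CPM with EGF and 11.97, 11.4 and 11.4 CPM without, a change of -1.60 ± 0.35 (adjusted p = 0.00564), with no overlap. Wnt5b, a non-canonical ligand, changed by -0.70 ± 0.11 (adjusted p = 6.69e-04). The called Wnt ligands numbered 2 to 4 when any single library was left out, with 2 without EGF-WR replicate 1 or WR replicate 2, 3 without EGF-WR replicate 3 or WR replicates 1 or 3, and 0 without the batch term.

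Milk protein genes rose with EGF. Csn3, the kappa-casein gene (chromosome 5, 87925579 to 87932665), was at 299, 372 and 439 CPM with EGF and 9.25, 8.60 and 18.5 CPM without. Csn1s1, the alpha-s1 casein gene whose promoter is shown above, was at 428, 553 and 851 CPM with EGF and 50.8, 62.01 and 144 CPM without. Lalba, which encodes the lactose synthase subunit alpha-lactalbumin, was at 7.89, 5.16 and 6.79 CPM with EGF and 0.295, 0.414 and 0.465 CPM without. In every batch these genes were several-fold higher with EGF and no values overlapped. Their log2 changes were 4.98 ± 0.35 (adjusted p = 6.28e-06), 2.93 ± 0.23 (adjusted p = 9.23e-06) and 4.09 ± 0.40 (adjusted p = 4.84e-06), fold changes of 31.5, 7.62 and 17.0, and the calls held in every alternative run. Of 20 tested milk and alveolar genes 8 rose and none fell in the edgeR fit of 18 libraries, with a median change of 0.78. DESeq2, the fit of 6 libraries and the omission of batch 1 or of batch 2 each called 1 lower. Slc34a2, a phosphate transporter, changed by 1.44 ± 0.29, the folate receptor gene Folr1 by 0.94 ± 0.13 and the prolactin receptor gene Prlr by 0.83 ± 0.14, all called. Csn2 and Wap stayed at the floor in both media, and neither was called. Csn2 was at 0.128, 0 and 0.397 CPM against 0.0328, 0 and 0.0996 CPM. Wap was at 0.415, 0.296 and 0.578 CPM against 0.164, 0.311 and 0.0996 CPM. Elf5 and Stat5a, transcription factors of the milk programme, were not called, with changes of 0.26 (adjusted p = 0.182) and 0.18 (adjusted p = 0.315), nor was Btn1a1, a milk fat globule gene, at -1.08 (adjusted p = 0.0761). Csn1s1 and Csn3 mark the ends of the casein cluster, which spans 266.46 kb from its first start to its last end.

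Other secretory genes rose beside the caseins. Aqp5, a water channel of exocrine glands, was at 258, 198 and 289 CPM with EGF and 50.7, 33.8 and 44.8 CPM without, a change of 2.53 ± 0.11 (adjusted p = 5.29e-10). Bpifb5, which encodes a secreted BPI-fold protein, was first among the genes named by size of rise; it was at 42.9, 23.4 and 42.6 CPM with EGF and 0.393, 0.760 and 1.06 CPM without, a change of 5.59 ± 0.26 (adjusted p = 2.14e-09). Crispld2, a secreted lipopolysaccharide-binding protein gene, was at 790.4, 529 and 1271 CPM against 54.9, 38.4 and 64.1 CPM, a change of 3.996 ± 0.25 (adjusted p = 1.92e-06). None of these 3 genes overlapped between media, and all 3 were also high in the EGF medium, with means of 234 ± 12.4, 41.4 ± 9.86 and 1266 ± 514 CPM (SD, n = 3). Bhlha15, a transcription factor of secretory cells also known as Mist1, was at 14.1, 12.2 and 16.1 CPM against 1.08, 1.35 and 2.19 CPM, a change of 3.21 ± 0.40. In the EGF medium Bhlha15 averaged 4.36 ± 1.34 CPM. Xbp1, the transcription factor of the unfolded protein response in secretory cells, was at 659, 507 and 689.8 CPM with EGF and 320.3, 312 and 331 CPM without, a change of 0.94 ± 0.13 (adjusted p = 1.61e-04) without overlap. Of 20 ATF4 and unfolded protein response genes 7 rose and none fell in the edgeR fit of 18 libraries (median 0.21). With the 9 wild-type libraries, with the 6 alone and without WR replicate 2, 1 fell, and 2 fell without batch 2. Trib3, an ATF4 target, changed by 1.02 ± 0.15 (adjusted p = 2.16e-04). With a single library left out, 3 to 5 members rose. The count was lowest without EGF-WR replicate 1 or WR replicate 3, was 4 without EGF-WR replicate 2 or WR replicate 2, and was 2 without the batch term. Also called higher were the amino acid transporter Slc38a3 (3.83 ± 0.22), the Rac regulator Chn2 (3.66 ± 0.21), the muscarinic receptor Chrm3 (3.26 ± 0.24), the glutamate decarboxylase Gad1 (3.25 ± 0.52) and the tight junction gene Cldn2 (3.11 ± 0.19), each with values that did not overlap. Of 16 tested BPI-fold and secretory defence genes 4 rose and 2 fell (median -0.20; 5 fell in DESeq2 and 6 with the 6 libraries), and of 7 aquaporins Aqp5 rose and 3 fell (median -1.10), these 3 being called 0 to 2 at a time with a single library left out.

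Luminal progenitor markers rose in part. Of 18 tested, 8 rose and none fell in edgeR, with a median change of 0.49, and 1 fell with the 6 libraries alone. Hey1, a Notch-family target, was at 169, 108 and 185 CPM with EGF and 48.7, 32.6 and 36.4 CPM without, a change of 1.98 ± 0.24 (adjusted p = 2.29e-04). Lcn2, a secreted iron-carrier protein, was at 2815, 2675 and 3815 CPM with EGF and 1533, 1223 and 1699 CPM without, a change of 1.05 ± 0.09 (adjusted p = 2.23e-06). Cd14, a lipopolysaccharide co-receptor that both luminal progenitors and macrophages make, was at 643, 374 and 561 CPM with EGF and 294, 189 and 287 CPM without, a change of 1.03 ± 0.12 (adjusted p = 2.71e-05). For all 3 the media did not overlap. Kit and Aldh1a3, defining markers of the same cells, were not called, with changes of -0.11 (adjusted p = 0.727) and -0.10 (adjusted p = 0.809). Csn3, Mfge8, Hey1, Lcn2 and Cd14 are among the members shared with other lists.

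General and hormone-sensing luminal markers split. Of 15 general luminal markers 4 rose (2 without EGF-WR replicate 1, 7 with the 6 libraries) and 1 fell (median 0.14). Krt18 was at 1037, 1154 and 1186 CPM against 672, 801 and 802 CPM, a change of 0.58 ± 0.13 (adjusted p = 0.00866), while Krt19 was at 936, 605 and 793 CPM against 1511, 1124 and 1265 CPM, a change of -0.75 ± 0.14 (adjusted p = 0.00212). Neither keratin overlapped between media, and they moved in opposite directions. The adjusted p of Krt18 was 0.059 without EGF-WR replicate 1. Among 14 hormone-sensing markers 5 rose and none fell in edgeR (median 0.05), and 3 rose without EGF-WR replicate 2 or WR replicates 1 or 3. DESeq2, limma-voom, the 1 CPM filter and the 9 wild-type libraries each called 1 lower, and the 6 libraries 2. The omission of EGF-WR replicate 1 or 2, or of batch 1 or 2, also left 1 called lower each time. Cited1, a transcriptional co-regulator of these cells, was at 7.85, 8.39 and 8.52 CPM with EGF and 3.11, 2.52 and 1.89 CPM without, a change of 1.73 ± 0.28 (adjusted p = 6.24e-04) with no overlap. The hormone receptor genes themselves were not called, at -0.24 for Esr1 and -0.27 for Pgr.

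Basal and myoepithelial markers were lower with EGF. Of 22 tested, 8 fell and 2 rose (median -0.52). Krt14, the main basal keratin, was at 1603, 2271 and 1762 CPM with EGF and 2434, 3542 and 2985 CPM without, a change of -0.67 ± 0.11 (adjusted p = 8.36e-04). Krt5, its partner, was at 1697, 2449.8 and 2095 CPM with EGF and 2531, 3647 and 3268 CPM without, a change of -0.60 ± 0.16 (adjusted p = 0.0333). All WR values were above all EGF-WR values for both keratins. The call for Krt14 held without any single library, whereas the adjusted p of Krt5 lay between 0.0555 and 0.136 when single libraries were left out, over the threshold without each of the 6. The contractile gene Mylk changed by -0.85 ± 0.16 (adjusted p = 0.00392), and the laminin receptor gene Itga6 moved the other way, by 0.35 ± 0.06 (adjusted p = 0.00152). The number of lower basal markers was 3 to 5 when a single library was left out (3 without EGF-WR replicate 1, 4 without EGF-WR replicates 2 or 3 or WR replicate 3, 5 without WR replicates 1 or 2), 2 without batch 2 and 0 without the batch term, but 13 with the 6 libraries alone. Among 20 proposed stem cell markers 6 fell (3 without EGF-WR replicate 1 or 3, 11 with the 6 libraries), and 2 rose (median -0.30). Procr and Sox9 were not called, at -0.00 and -0.19. Nrp1 (-1.36 ± 0.24), Cdh5 (-1.33 ± 0.30), Inpp5d and Zeb1, among the 6 that fell, are also made by endothelial, blood or mesenchymal cells.

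Several genes of squamous, epidermis-like differentiation fell steeply, and others were not called. Krt10, the keratin of the suprabasal epidermis whose promoter is shown above, was at 6.03, 7.53 and 37.01 CPM with EGF and 129, 427 and 671 CPM without. Krt1, its partner, was at 0.926, 4.08 and 29.5 CPM with EGF and 94.98, 254 and 589.5 CPM without. WR batch 1 was the lowest of the WR libraries for both keratins, EGF-WR batch 3 was the highest of the EGF-WR libraries, and the groups did not overlap. The changes were -4.66 ± 0.56 (adjusted p = 3.55e-04) and -5.09 ± 0.67 (adjusted p = 6.49e-04), falls of 25.4-fold and 34.1-fold, and they were called in every alternative run. In the EGF medium Krt10 averaged 4.16 ± 0.856 CPM and Krt1 0.236 CPM. Of 13 tested suprabasal and stress keratins 4 fell (2 without EGF-WR replicate 2) and none rose (median -0.77). Krt6a, a stress keratin, was not called at -0.64 (adjusted p = 0.265).

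Cornified envelope and barrier genes summed to 403, 376 and 536 CPM with EGF and 453, 1112 and 948 CPM without. The sum was 1.12, 2.95 and 1.77 times as high without EGF in batches 1, 2 and 3, and the media overlapped. Of 38 tested members 21 fell and none rose, with a median change of -3.06. Many were close to 0 with EGF: Tgm3, a transglutaminase that crosslinks the envelope, was at 0, 0 and 0.108 CPM against 0.426, 2.11 and 3.45 CPM, a change of -5.64 ± 1.12 (adjusted p = 0.00294). Casp14, the protease that processes filaggrin, was at 0.224, 1.48 and 1.34 CPM against 4.75, 13.9 and 13.2 CPM, a change of -3.44 ± 0.51 (adjusted p = 3.42e-04). Pla2g2f, an epidermal phospholipase, was at 0.287, 0.888 and 1.55 CPM against 3.48, 14.7 and 13.6 CPM, a change of -3.53 ± 0.38 (adjusted p = 6.39e-05). The WR values lay above the EGF-WR values for all 3 genes, with WR batch 1 lowest among them. Alox12b, a lipoxygenase of the skin barrier, had no read in the EGF-WR libraries and 89 in the WR libraries, which makes it at least 29.6-fold lower (floor of 3 counts over the group; adjusted p = 0.0195), and the adjusted p was 0.0685, 0.0725 and 0.0816 without EGF-WR replicate 2, EGF-WR replicate 3 or WR replicate 3. Flg, the filaggrin gene, was at 0, 0 and 1.48 CPM against 4.66, 19.3 and 24.5 CPM (adjusted p = 0.0282), and the call was lost without EGF-WR replicate 1 or 2 or any single WR library, with an adjusted p of up to 0.105. Ivl and Sprr1a, earlier markers of the same programme, were not called, at 0.41 and -0.06. With a single library left out 12 to 19 barrier genes were called, with 12 without EGF-WR replicate 2 and 13 without EGF-WR replicate 1, and without the batch term 7.

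Transcription factors and junctions of the squamous programme moved the same way. Barx2, a homeobox factor, was at 55.2, 75.2 and 73.4 CPM with EGF and 131, 153 and 173 CPM without, a change of -1.18 ± 0.15 (adjusted p = 8.88e-05). Hopx, a homeodomain protein of differentiating keratinocytes, was at 1.15, 0.888 and 1.19 CPM with EGF and 5.97, 5.21 and 4.58 CPM without, a change of -2.31 ± 0.36 (adjusted p = 4.49e-04). Neither gene's groups overlapped, and both calls held in every alternative run. Of 17 squamous transcription factors 6 fell (3 without EGF-WR replicate 3) and 1 rose, Grhl1 at 0.63 ± 0.13 (median -0.39). The desmosomal cadherins Dsc1 and Dsg1a, which belong to the upper epidermis, changed by -3.26 ± 0.48 (adjusted p = 4.96e-04) and -2.35 ± 0.35 (adjusted p = 3.55e-04). Dsg1a went from 11.4, 29.2 and 31.002 CPM in WR to 3.77, 4.57 and 4.80 CPM in EGF-WR and averaged 0.0546 CPM in EGF medium. Of 16 desmosome genes 6 fell (3 without EGF-WR replicate 3 or WR replicate 3) and 1 rose (median -0.27).

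**Figure D2:**
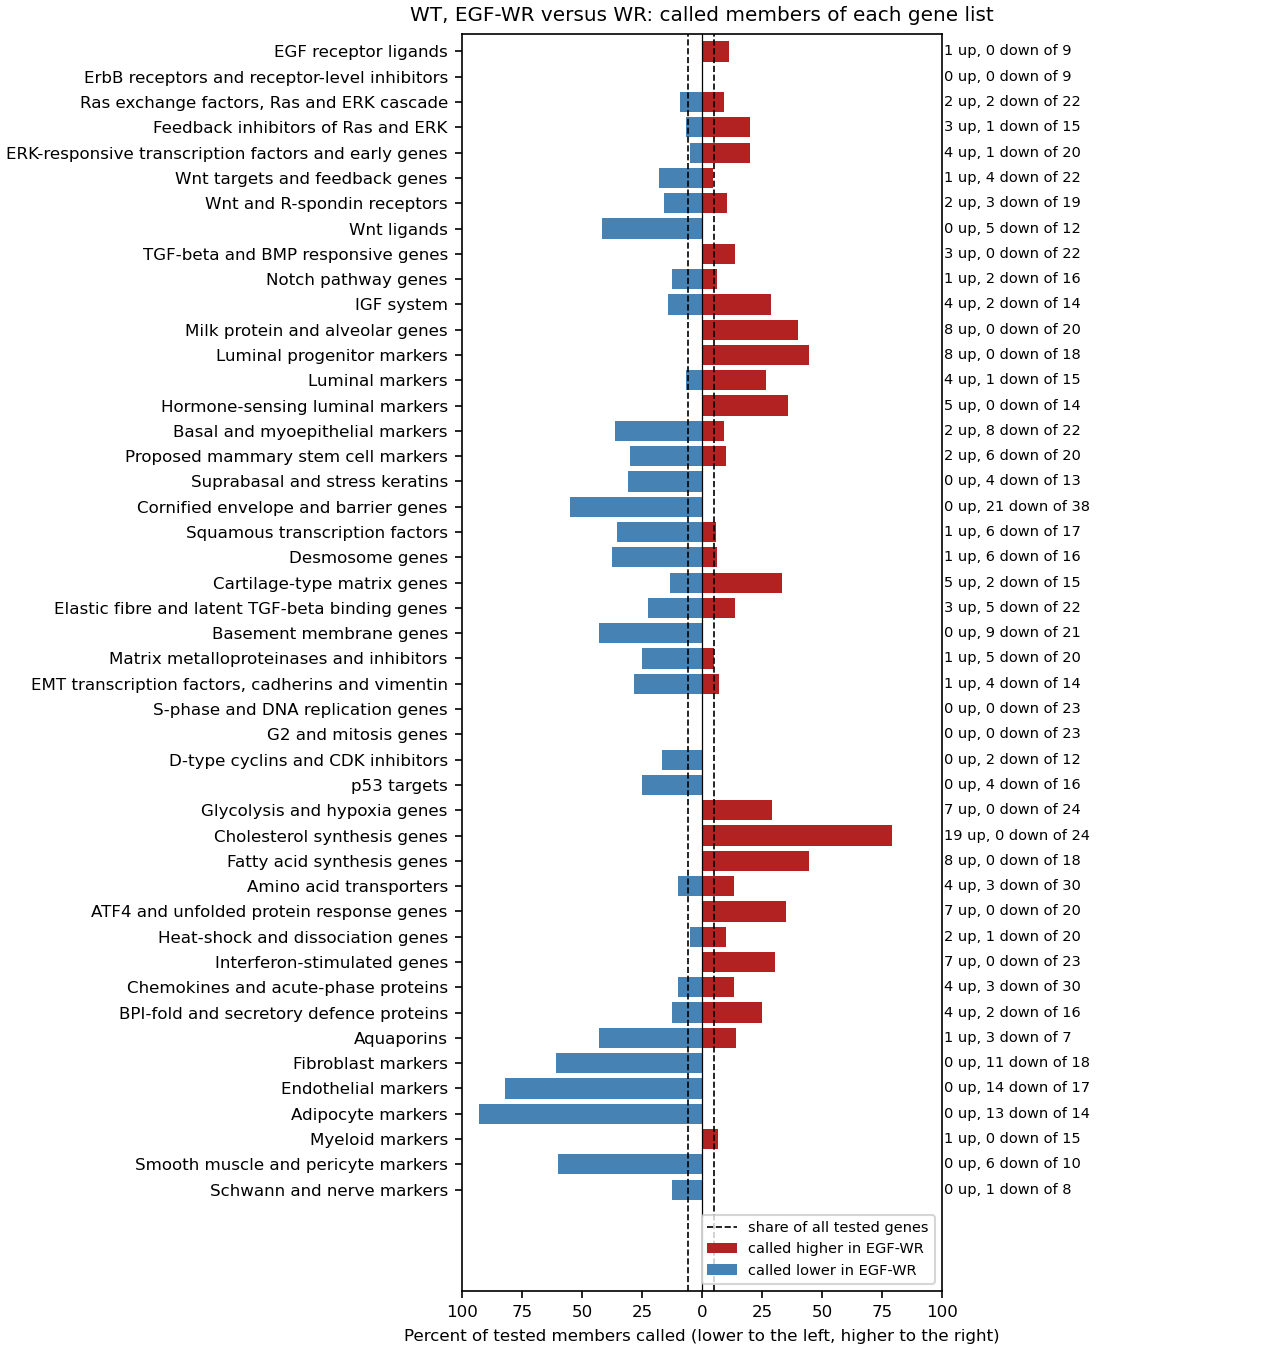
Percent of tested members called lower (blue, left) and higher (red, right) with EGF for each gene list with at least 5 tested members; dashed lines mark the 5.82% and 4.92% of all tested genes. Cholesterol synthesis has the highest share called higher (19 of 24), and adipocyte (13 of 14) and endothelial markers (14 of 17) the highest shares called lower.

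Matrix genes divided by kind. Cartilage-type collagens rose: Col2a1 was at 18.9, 6.12 and 6.75 CPM with EGF and 0.951, 0.0690 and 0.531 CPM without, and Col9a1 at 61.6, 26.7 and 61.9 CPM with EGF and 4.62, 3.69 and 5.08 CPM without. No values overlapped, and the changes were 4.38 ± 0.49 (adjusted p = 2.74e-05) and 3.45 ± 0.33 (adjusted p = 4.26e-05). Col11a1 was at 539, 302 and 391 CPM with EGF and 212, 143 and 135 CPM without, a change of 1.33 ± 0.17 (adjusted p = 1.61e-04). Of 15 genes on this list 5 rose and 2 fell (median 0.02); the cartilage proteoglycan gene Acan was one that fell, by 1.91 on the log2 scale (SE 0.51), and its adjusted p of 0.0257 passed 0.05 without 5 of the 6 single libraries, reaching 0.105. Fbn2, a fibrillin of developing elastic fibres, was at 13.6, 3.88 and 4.48 CPM with EGF and 108, 42.4 and 81.8 CPM without, a change of -3.50 ± 0.29 (adjusted p = 5.49e-06). Eln, the elastin gene, was at 11.6, 6.58 and 6.75 CPM with EGF and 49.97, 22.96 and 23.9 CPM without, a change of -1.93 ± 0.25 (adjusted p = 1.62e-04). All EGF-WR libraries were below all WR libraries for both, and of 22 elastic fibre genes 5 fell (3 without EGF-WR replicates 1 or 3 or WR replicate 1, 10 with the 6 libraries) and 3 rose (median -0.56).

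Basement membrane genes were lower with EGF, 9 of 21 tested and none higher (median -0.39). Col4a1 was at 477, 357 and 315 CPM with EGF and 1122, 620 and 478 CPM without, a change of -0.89 ± 0.14 (adjusted p = 0.00106). The laminin-binding linker gene Nid1 was at 69.3, 74.5 and 59.8 CPM with EGF and 157, 164 and 102 CPM without, a change of -1.04 ± 0.18 (adjusted p = 0.00174). WR batch 3 was the lowest WR library for both, and each still exceeded its batch partner. With a single library left out 5 to 10 were called, with 5 without EGF-WR replicate 1, and without the batch term 2. Among genes of epithelial-mesenchymal transition 4 of 14 fell and 1 rose (median -0.62). Zeb2, a repressor of epithelial genes, was at 11.8, 12.7 and 7.33 CPM with EGF and 41.8, 34.8 and 28.3 CPM without, a change of -1.72 ± 0.20 (adjusted p = 4.44e-05) without overlap. Vim, the vimentin gene, changed by -0.71 ± 0.12 (adjusted p = 0.00137). Among 20 matrix metalloproteinases and inhibitors 5 fell (2 without EGF-WR replicate 3, 3 without EGF-WR replicate 2 or WR replicates 1 or 2) and 1 rose (median -0.41). Among 22 TGF-beta and BMP responsive genes 3 rose, which were Tgfb3 (0.90 ± 0.20), Tgfb2 (0.77 ± 0.15) and Tgfb1 (0.36 ± 0.09). None fell in the edgeR fit of 18 libraries, against 2 in DESeq2, with the 9 wild-type libraries or without WR replicate 2. The number that fell was 3 with the 6 libraries, and 1 without batch 2 or with the 1 CPM filter.

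Markers of stromal cell types moved with these genes. Adipocyte markers summed to 414, 887 and 344 CPM with EGF and 1722, 2607 and 869.7 CPM without, and 13 of 14 fell (median -2.62). Endothelial markers summed to 203, 318 and 277 CPM with EGF and 546, 604 and 444 CPM without, and 14 of 17 fell (median -1.13). Fibroblast markers summed to 4313, 2099 and 2046 CPM with EGF and 8617, 3664 and 3724 CPM without, and 11 of 18 fell (median -0.91). In each of the 3 batches every one of these sums was lower with EGF; the endothelial sums did not overlap between media, whereas the adipocyte and fibroblast sums overlapped across batches. Smooth muscle and pericyte markers summed to 546 to 825 CPM with EGF and 747 to 1166 CPM without, with 6 of 10 lower (3 without EGF-WR replicate 1). These shares stand beside 5.82% of all tested genes. In bulk RNA, fewer cells of a type and less RNA per cell cannot be told apart.

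Single stromal genes showed the size of the shift. Fabp4, the adipocyte fatty acid carrier, was at 40.997, 177 and 29.6 CPM with EGF and 431, 734 and 195 CPM without, a change of -2.61 ± 0.43 (adjusted p = 0.00244). Adipoq, the adiponectin gene, was at 6.74, 33.5 and 4.08 CPM with EGF and 82.6, 125 and 45.01 CPM without, a change of -2.81 ± 0.43 (adjusted p = 0.00164). Car3, an abundant adipocyte carbonic anhydrase, was at 0.128, 0.197 and 0.0722 CPM with EGF and 7.64, 4.59 and 3.45 CPM without, a change of -5.30 ± 0.92 (adjusted p = 0.00135). Batch 2 was the highest in both media for Fabp4 and Adipoq, and the groups did not overlap for any of the 3. Pecam1, a junction protein of endothelial cells, was at 19.5, 46.1 and 35.6 CPM with EGF and 76.9, 89.8 and 61.2 CPM without, a change of -1.18 ± 0.26 (adjusted p = 0.0104). Gsn, the gelsolin gene, abundant in fibroblasts, was at 108, 177 and 85.3 CPM with EGF and 377, 402 and 275 CPM without, a change of -1.54 ± 0.19 (adjusted p = 1.81e-04). Col6a1 was at 232, 233 and 187 CPM with EGF and 635, 435 and 376 CPM without, a change of -1.12 ± 0.14 (adjusted p = 8.17e-05). For these 3 genes, too, every WR library was above every EGF-WR library.

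The stromal lists differ in how far they rest on single batches. Endothelial calls numbered 7 to 12 with a single library left out, lowest without EGF-WR replicate 1 (7), 5 without batch 1 or batch 2, and 3 without the batch term. Fibroblast calls numbered 7 to 11, with 7 without EGF-WR replicate 3 or WR replicate 1, 5 without batch 1, and 3 without the batch term. Adipocyte calls numbered 11 to 13, then 6 without batch 3, 7 with the 6 libraries alone, where Fabp4 and Adipoq were among those lost, and 1 without the batch term. Blood cells were close to absent: lymphocyte markers summed to 3.16 to 6.04 CPM over the 6 libraries with 5 of 16 markers at 0, and 5 of 6 red blood cell genes, globins among them, were at 0. Of 8 Schwann and nerve markers 1 fell, Ngfr, also a basal gene, at -2.22 ± 0.62 (adjusted p = 0.0383; up to 0.155 with a single library left out). Of 15 tested myeloid markers Cd14 was called higher and none lower in edgeR; 14 had negative changes, the median was -1.66, and 9 had an unadjusted p under 0.05. DESeq2 called 6 of them lower, the fit of 6 libraries 4, and edgeR 2 without WR replicate 1 and 1 without batch 3. In the myeloid list the summed level of 384 to 669 CPM with EGF and 231 to 374 CPM without is mostly Cd14. The epithelial marker Epcam was high in all 6 libraries, at 1038, 869.9 and 1058 CPM with EGF and 781, 705 and 874 CPM without. It was called higher with EGF, at 0.33 (adjusted p = 0.012), with overlapping groups, and its call was lost in 5 of 17 alternatives. Other epithelial markers moved in either direction, as given above. The part of the stromal lists in the falls of basal, elastic fibre, basement membrane, epithelial-mesenchymal transition, matrix metalloproteinase and Wnt ligand genes was not tested.

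**Figure D3:**
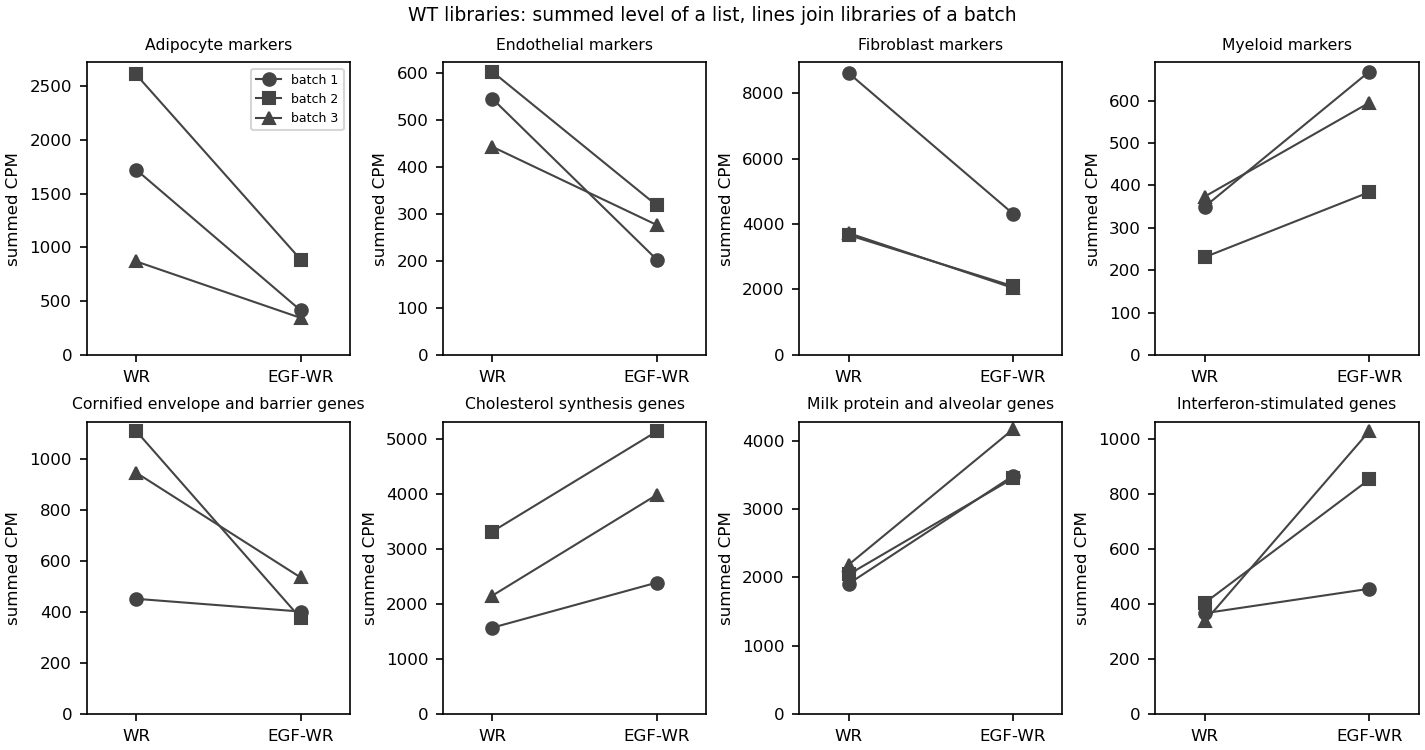
Summed CPM of 8 gene lists in each wild-type library, with lines joining the WR and EGF-WR libraries of a batch and each axis starting at 0. Lines fall from WR to EGF-WR in all 3 batches for adipocyte, endothelial, fibroblast and cornified envelope genes and rise in all 3 for cholesterol, milk, interferon and myeloid genes.

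Cholesterol synthesis was the list with the highest share of rising genes. All 24 tested members had a positive change and 19 were called, with a median of 0.75. Sqle, squalene epoxidase, was at 159.7, 323 and 242 CPM with EGF and 95.3, 213 and 125 CPM without, a change of 0.76 ± 0.12 (adjusted p = 7.97e-04). Srebf2, which encodes the transcription factor of the pathway, was at 473, 680.4 and 633 CPM with EGF and 315, 453 and 409 CPM without, a change of 0.60 ± 0.07 (adjusted p = 1.99e-05). Batch 2 was the highest and batch 1 the lowest in both media, and Sqle overlapped between media while each batch pair rose. Srebf2 did not overlap. Without the batch term none of the 24 was called. With single libraries left out 12 to 17 were, 12 without EGF-WR replicate 2 or WR replicate 3, and without batch 3 the count was 10.

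Lipid, sugar and amino acid genes moved less broadly. Of 18 fatty acid synthesis genes 8 rose and none fell in edgeR (median 0.35; 1 fell with the 9 wild-type libraries); the elongase gene Elovl6 was at 115, 171 and 183 CPM with EGF and 61.7, 81.2 and 88.1 CPM without, a change of 1.01 ± 0.10 (adjusted p = 5.49e-06) without overlap. Thrsp, a lipogenic regulator, changed by 1.81 ± 0.39 (adjusted p = 0.00601). Of 24 glycolysis and hypoxia genes 7 rose and none fell (median 0.59). Eno1, the enolase gene, was at 252, 286 and 445 CPM with EGF and 132, 169.5 and 161 CPM without, a change of 1.05 ± 0.15 (adjusted p = 4.79e-04), and Hk1, a hexokinase, at 462, 476 and 607 CPM with EGF and 273, 271 and 284 CPM without, a change of 0.89 ± 0.10 (adjusted p = 1.35e-05). Car9, a carbonic anhydrase that responds to low oxygen, was at 17.5, 7.60 and 43.2 CPM with EGF and 2.89, 1.80 and 2.62 CPM without, a change of 2.95 ± 0.58 (adjusted p = 0.00636). EGF-WR batch 3 was the highest library for Eno1, Hk1 and Car9, and no gene of the 3 overlapped. The glycolysis count was 4 without EGF-WR replicate 1, EGF-WR replicate 3 or WR replicate 3 and with the 6 libraries alone, 2 without batch 1 and 12 without batch 2. Among 30 amino acid transporters 4 rose and 3 fell, the latter 0 to 2 with a single library left out (median -0.11). Slc7a5, the large neutral amino acid carrier, changed by 0.68 ± 0.10 (adjusted p = 2.29e-04).

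**Figure D4:**
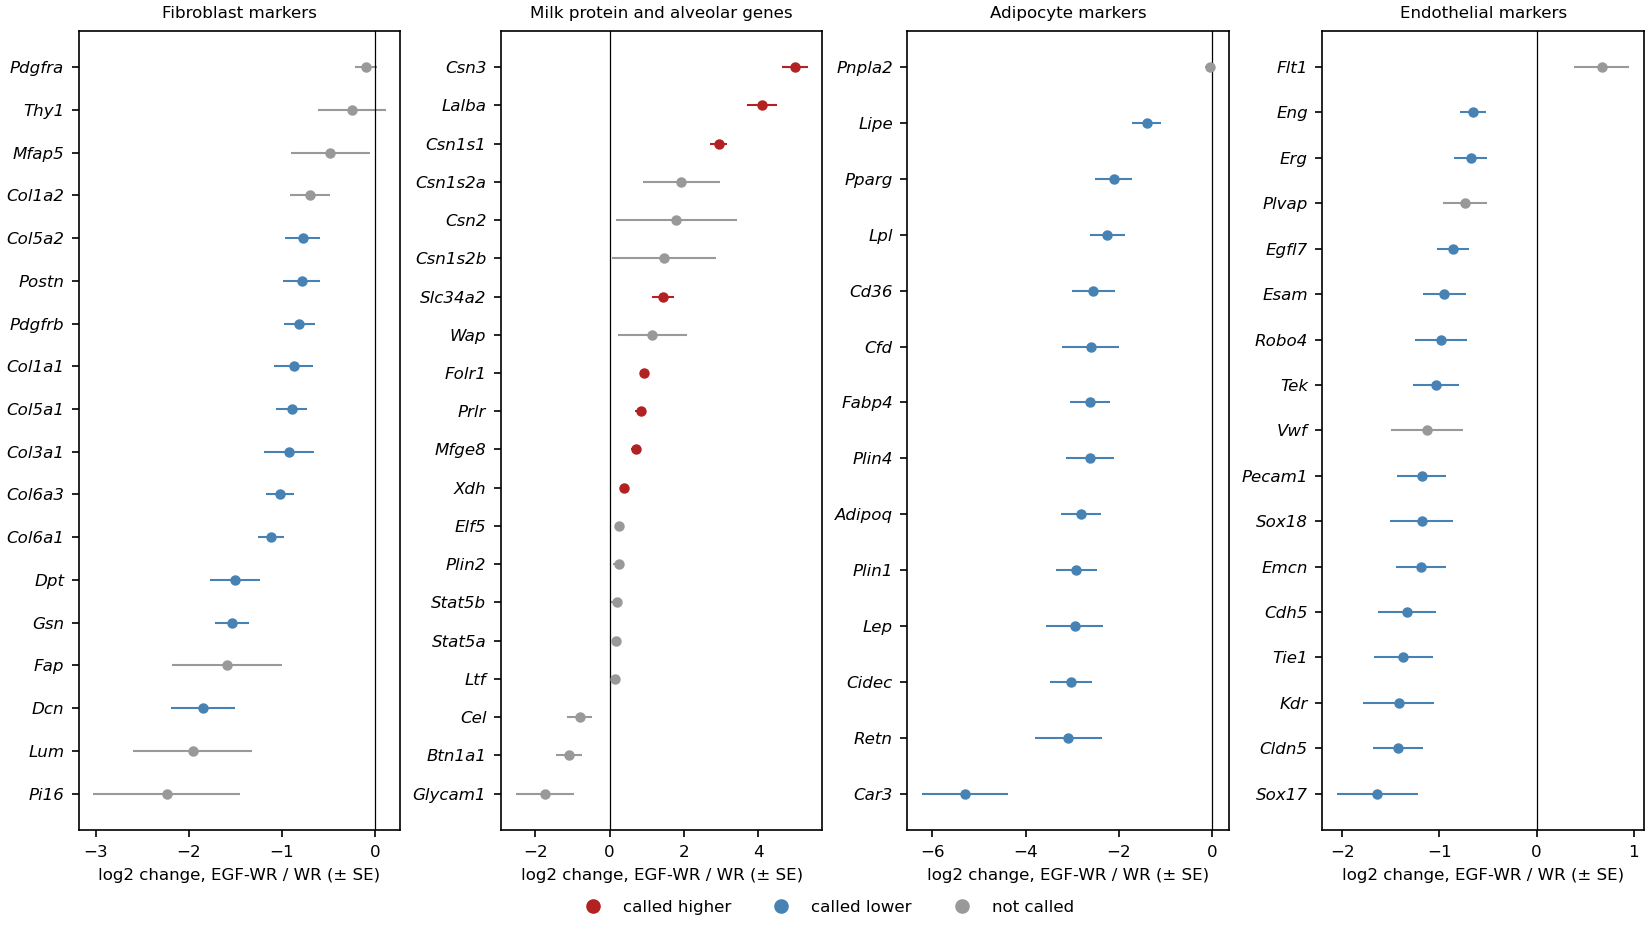
Log2 change with EGF (EGF-WR over WR, wild type) of each member of 4 lists, with bars for 1 SE. All fibroblast and adipocyte genes lie to the left of 0, while milk genes spread on both sides with Csn3, Lalba and Csn1s1 farthest right.

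Interferon-stimulated genes rose unevenly over the batches. All 23 tested members were positive, the median was 1.26, and 7 were called. Irf7, the amplifier of the interferon response, was at 42.6, 110.2 and 156 CPM with EGF and 22.2, 27.5 and 28.8 CPM without, a change of 1.73 ± 0.41 (adjusted p = 0.0209). Bst2, an antiviral membrane protein, was at 34.04, 85.99 and 97.8 CPM with EGF and 23.2, 25.4 and 32.7 CPM without, a change of 1.29 ± 0.28 (adjusted p = 0.00986). The WR values lay close together in the 3 batches, and EGF-WR batch 1 stood well below EGF-WR batches 2 and 3. The summed level of the list was 1.24, 2.11 and 3.05 times as high with EGF in batches 1, 2 and 3. The 7 calls became 2 without EGF-WR replicate 1 or 2, 3 without EGF-WR replicate 3 or WR replicates 2 or 3, 8 without WR replicate 1, 1 without batch 2 and 0 without the batch term; DESeq2 called 11, limma-voom 12 and the fit of 9 wild-type libraries 13. For Irf7 the adjusted p without a single library reached 0.0871, and for Bst2 it was 0.0543 without WR replicate 2. Other defence genes included Pigr, the transporter of secreted antibodies, which changed by 0.83 ± 0.11 (adjusted p = 1.48e-04), and the acute-phase gene Hp, which changed by -1.26 ± 0.25 (adjusted p = 0.00671). Among 30 chemokine and acute-phase genes 4 rose and 3 fell (1 without WR replicate 1, 6 with the 9 wild-type or the 6 libraries; median 0.16).

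Cell cycle genes were not called in either direction. None of 23 S-phase genes and none of 23 G2 and mitosis genes passed in edgeR, DESeq2 or limma-voom, with medians of 0.15 and 0.17; 3 and 1 members had an unadjusted p under 0.05. Mki67, the proliferation marker, was at 253, 485 and 384 CPM with EGF and 271, 454 and 387 CPM without, a change of 0.00 ± 0.16 (adjusted p = 0.995), and the media overlapped throughout. Fitted on the 6 libraries alone 3 and 2 members passed. Among 12 D-type cyclins and CDK inhibitors 2 fell (5 with the 6 libraries), Ccnd1 and Cdkn1a, the p21 gene, the latter by 0.75 on the log2 scale (SE 0.17, adjusted p = 0.00775). Of 16 p53 targets 4 fell and none rose (median -0.27), and 1 or 2 fell with a single library left out. Of 20 heat-shock and dissociation genes, a sign of handling, 2 rose and 1 fell (median -0.24). None rose without EGF-WR replicate 1 or 3 or WR replicate 1 or 3, and 8 fell with the 9 wild-type or the 6 libraries; the part of handling in the results was not tested. The Notch list had 1 higher (Hey1) and 2 lower of 16. Its lower count was 0 without replicate 1 of either medium, 1 without replicate 2 and 3 without replicate 3 of either, 4 with the 9 wild-type libraries, and 5 in DESeq2 and with the 6 libraries. The IGF list had 4 higher and 2 lower of 14, with 2 or 3 higher and 0 or 1 lower when a single library was left out. Among them was H19, an imprinted RNA, at 1.78 ± 0.33 (adjusted p = 0.00487).

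Values in EGF medium set the combined medium beside the single ones. The comparisons of wild-type EGF with WR (2639 genes, 15.4%) and of EGF-WR with EGF (2672 genes, 15.6%) share their libraries with the comparison described here, so their values are given side by side. For suprabasal keratins the summed means were 121 CPM in EGF, 432 CPM in EGF-WR and 1609.9 CPM in WR, and 27 of 38 cornified envelope genes were lower in EGF than in WR, beside 6.92% of all tested genes. For cholesterol genes they were 2700, 3842 and 2349 CPM; only 4 of the 24 were higher and 1 lower in EGF than in WR (median 0.10), while 18 were higher in EGF-WR than in EGF, where 8.52% and 6.85% of all tested genes were higher. The stromal lists had their lowest mean in the combined medium. Fibroblast means were 6488 CPM in EGF, 2819 CPM in EGF-WR and 5335 CPM in WR, and 5 of 18 were called higher, none lower, in EGF than in WR. Endothelial means were 719, 266 and 531 CPM, with 2 of 17 higher in EGF than in WR and all 17 lower in EGF-WR than in EGF, beside 8.78% of all tested genes. Adipocyte means were 1348, 548 and 1733 CPM, and 1 of 14 was lower in EGF than in WR. Csn3 averaged 527 ± 82.04 CPM and Etv5 146 ± 35.9 CPM in EGF medium, beside their EGF-WR means of 370.1 ± 70.02 and 145 ± 38.8 CPM (SD, n = 3). Cell cycle lists had 7 and 10 members lower in EGF than in WR and 13 and 16 higher in EGF-WR than in EGF. Summed means of interferon-stimulated genes were 454 CPM in EGF, 780 CPM in EGF-WR (456 to 1030 CPM) and 370 CPM in WR. None of these 23 genes was called between EGF and WR (median 0.23), where 15.4% of all tested genes were. In EGF-WR 2 of the 23 were higher than in EGF, beside 6.85% of all tested genes.

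The same addition of EGF to WR medium in RasGRP1-/- organoids called 2179 genes, 12.7% of those tested. Of the 1835 genes called in wild type, 1822 had the same sign in the mutant and 1440 were called there with that sign. These 1440 are 78.5% of the wild-type calls and 66.1% of the mutant calls, and none was called with the opposite sign. The share of all tested genes with the same sign was not counted, so the 1822 have no background beside them. The mutant comparison shared no library with the wild-type one, but the same batches and the same model covered both. Log2 changes in the mutant were 4.87 for Csn3, 3.52 for Etv5, -4.63 for Krt10, -2.69 for Fabp4 and 0.68 for Srebf2. Some list counts were near each other and others were not. In the mutant 20 of 24 cholesterol genes were higher, against 19 in wild type (6.1% of all tested genes were higher in the mutant). Adipocyte and endothelial genes had 13 of 14 and 14 of 17 lower in both genotypes (6.65% of all tested genes were lower in the mutant). Cornified envelope genes had 15 of 38 lower in the mutant against 21 in wild type. TGF-beta and BMP responsive genes had 3 of 22 lower in the mutant against 0 in wild type. Tested as an interaction, the difference between genotypes called 0 genes in edgeR, 1 in DESeq2 (Ighg2b, an immunoglobulin gene) and 0 in limma-voom, and 286 genes had an unadjusted p under 0.05 in edgeR (1.67% of tested genes), 39 of them among the wild-type calls. The smallest interaction p belonged to Ripply1, a transcriptional co-repressor known from somite formation, which was at 2.46, 1.22 and 1.300 CPM with EGF and 0.0984, 0 and 0.0332 CPM without, a wild-type change of 5.09 ± 0.62 against 1.10 in the mutant (adjusted p of the interaction 1). A miss of the threshold does not show that the genotypes respond alike.

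**Figure D5:**
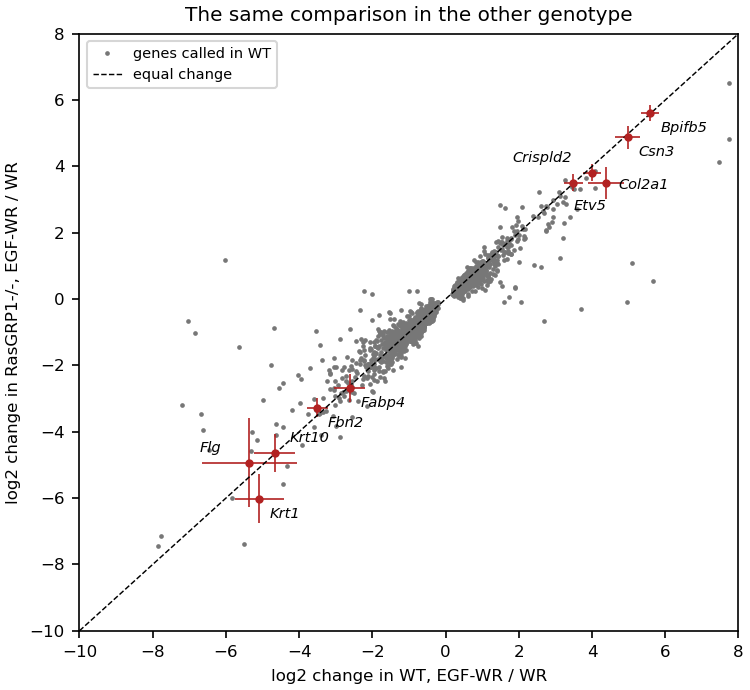
Log2 change with EGF in RasGRP1-/- organoids (vertical) against wild-type organoids (horizontal) for the 1835 genes called in wild type; 10 genes are labelled with bars for 1 SE and the dashed line marks equal change. Points follow the dashed line, with 1822 in the quadrants of equal sign. The share of all tested genes with equal sign was not counted.

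The authors' deposited table gives its own test of the same contrast and calls 2364 genes, 1048 higher and 1316 lower. Of the 1835 genes called here, 1830 were called there with the same sign, which is 99.7% of the calls here and 77.4% of theirs.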

How the data were processed

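RNA from 18 organoid libraries was sequenced as 50 bp single-end reads. The authors deposited raw read counts per Ensembl gene; STAR, DESeq2 and GRCm38 stand in the submitters' processing notes without role or version, and the sources used here do not name the counter, strand setting or annotation release. Genes that overlap on opposite strands, and close paralogs such as Krt6a or Stfa3, may therefore share reads. The authors' deposited table holds their log2 fold changes, fold changes (a ratio) and p-values for the same contrast, per the file headers; 36 other per-sample columns were not used.

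Counts were fitted with edgeR 4.0.16 (R 4.3.3, limma 3.58.1): TMM scaling, filterByExpr (minimum count 10, total 15), all 18 libraries, 6 groups and batch as terms, robust quasi-likelihood test, Benjamini-Hochberg adjustment over 17092 genes, calls at an adjusted p under 0.05. CPM uses TMM-scaled library sizes, and SE is the absolute log2 change over the square root of F. Batch was kept as a block because the labels name the replicate number as a batch; deviations of same-numbered EGF-WR and WR libraries correlated at 0.361, 0.289 and 0.281, other pairs at -0.25 to -0.04. The script was tested on simulated data.

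Named genes were the 14 largest rises and falls with a mean of at least 4 CPM, the 8 largest with at least 100 CPM, up to 5 called members per direction of 48 gene lists, members not called, and the 5 smallest interaction p-values. Krt5, Sqle, Srebf2, Adipoq, Pecam1, Hk1, Rasgrp1, Nmnat2 and Kcna1 were added after their values were seen. Some list members are not reported here by name. The comparison, members and lists were chosen with earlier results of these data known. The series design calls replicates biological; the labels do not tie them to animals. Alternatives were no batch term, RLE size factors, no filter, a 1 CPM filter, DESeq2 1.42.0, limma-voom, 9 or 6 libraries, and leaving out libraries or batches. Promoter sequences are from RefSeq.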

Additional observations from a re-analysis of the deposited data

Results flagged for a closer look

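3 genes moved one way in every wild-type batch pair and the other way in every RasGRP1-/- pair when EGF was added to WR medium. For Lama1, a laminin chain gene, the estimated difference between genotypes was 0.36 on the log2 scale. Its wild-type pairs stood at 0.15, 0.09 and 0.10 and its mutant pairs at -0.08, -0.06 and -0.56. The estimate for the mitochondrial gene mt-Co1 was 0.52, with wild-type pairs at 0.02, 0.24 and 0.25 and mutant pairs at -0.47, -0.02 and -0.56. For mt-Nd2 the difference was 0.53, with wild-type pairs at 0.07, 0.38 and 0.17 and mutant pairs at -0.51, -0.02 and -0.47. None was called in wild type, and the adjusted p of each interaction in edgeR was 1. Several single pairs lay near 0. All named genes and the 783 tested list members were screened this way. How many of the screened genes would show this pattern with no genotype difference was not computed, so the 3 genes are a description only.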

How the results depend on the processing

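The number of called genes depended on the batch block that pairs same-numbered libraries. With no replicate block 404 genes were called, 211 higher and 193 lower, all of them among the 1835. Leaving out single libraries or whole batches gave 785 to 1415 calls, 338 to 703 higher and 433 to 740 lower. Other settings gave 1573 to 2651 calls, and 43.1% to 52.2% of calls were higher across all settings. The genotype difference called 1 gene under DESeq2. Of 4373 values for 258 named genes, 830 lost their call, 30 gained it and 3513 kept their side. None of these genes had a called value in the opposite direction; 7 that were not called changed sign in some setting, namely Aldh1a3, Ivl, Kit, Lama1, Mki67, Procr and Sprr1a. Of 1632 list counts 392 moved by more than 1.5 times. Genes with few reads, such as most barrier genes with EGF, have the least certain fold changes. With 10 residual degrees of freedom shared over 18 libraries, the spread is assumed alike in all groups.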
